A study of Rattus norvegicus with 9 samples.

Results

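The genes described here are 36 members of the membrane fusion machinery of RBL-2H3 cells, taken by gene symbol from the 18006 genes that had an expression value. They comprise 10 SNAREs of the plasma membrane and secretory granules, 8 of endosomes and the trans-Golgi network (TGN), 8 of the endoplasmic reticulum (ER) and Golgi, 2 that serve several membranes, 5 regulators and 3 factors of SNARE disassembly. Members were matched by symbol alone, and all 36 were found. RBL-2H3 is a rat basophilic leukemia line that is widely used as a model of mast cells (MCs). RNA was sequenced in 9 samples, 3 in each of 3 groups.

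Sample titles call the groups Ctrl, IgE/DNP and PF1, shortened here to Ctrl, DNP and PF. The DNP group was sensitized with 50 ng/mL IgE against DNP for 12 h and was then exposed to the antigen DNP-HSA at 100 ng/mL for 4 h. The PF group received the same sensitization and antigen and was in addition pretreated for 1 h with an agent that the treatment label calls PF. The labels do not say what PF is, and the study's text does not describe this group. A label field gives the PF samples stimulation times of 4, 5 and 6 h for replicates 1, 2 and 3, whereas the protocol field gives 4 h. Treatment and time therefore cannot be told apart in this group as a whole. Only PF replicate 1 is labelled 4 h in both fields, as the DNP samples are. The Ctrl group is labelled untreated, but its protocol field repeats the sensitization and stimulation, so whether it received IgE is not settled. The labels do not say whether the replicates were separate cultures, and where the study speaks of independent experiments it does so for several assays together, without tying them to these samples. The p-values therefore measure the spread between these samples, which may be technical. The labels call the material peripheral blood, whereas the source is the cell line. By their mRNA the samples were mast cell-like: of 12 mast cell markers, 11 had a value and each of these was at 50 FPKM or more in all 9 samples, and the list summed to 5915 to 6077 FPKM in Ctrl, 5721 to 5835 in DNP and 5858 to 6071 in PF samples. Within that sum, which Srgn (serglycin, the granule proteoglycan) dominates at 2688 to 3004 FPKM, single markers changed: of the 11, 1 rose and 5 fell in DNP vs Ctrl, 3 rose and 3 fell in PF vs DNP, and 3 rose and 5 fell in PF vs Ctrl. Tph1, the enzyme of serotonin synthesis, had group means of 341, 259 and 210 FPKM in Ctrl, DNP and PF, Gata2, a transcription factor of MCs, 391, 370 and 294 FPKM, whereas the granule protease Mcpt2 was at 198 to 202, 123 to 133 and 133 to 153 FPKM. Other markers had higher group means in PF than in Ctrl. In Ctrl, DNP and PF, Fcer1g was at 716, 639 and 808 FPKM, Fcer1a at 442, 424 and 482, and Ms4a2 at 431, 461 and 476. Of all genes tested, 14.7% rose and 14.4% fell in DNP vs Ctrl. The shares were 18.1% and 30.7% in PF vs DNP, and 23.1% and 34.6% in PF vs Ctrl. The part of these marker changes in the results was not tested. Markers of other cells were mostly near 0 (4 of 5 neuronal, 3 of 5 T and B cell, 6 of 7 fibroblast and epithelial and 4 of 5 erythroid genes with a value were under 1 FPKM in all samples). The exception among erythroid genes was Hba2, at 171 to 206 FPKM in the Ctrl and DNP samples and 249 to 273 FPKM in the PF samples, with Hbb at 0.35 FPKM or less. The erythroid list summed to 172 to 206 FPKM in the Ctrl and DNP samples and to 250 to 274 FPKM in the PF samples, and its part in the PF results was not tested. All 3 genes read as a check of the antigen response rose in DNP vs Ctrl, and in PF vs DNP 1 of them rose and 2 fell. The transcription factor gene Egr1 was at 3.35 to 4.00 FPKM in Ctrl, 158 to 176 in DNP and 219 to 238 in PF samples. The cytokine gene Il4 was at 2.26 to 2.47 FPKM in Ctrl, 11.8 to 12.7 in DNP and 2.55 to 4.22 in PF samples, and the chemokine gene Ccl2 at 212 to 242, 650 to 710 and 247 to 296 FPKM. All 3 remained higher in PF than in Ctrl samples by the test.

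SNAREs are small, mostly membrane-anchored proteins that pair across opposing membranes and zipper into a bundle of helices, which pulls the membranes together until they fuse. A fusing bundle combines Qa, Qb, Qc and R helices, and each transport step uses its own set. In MCs, SNAP-23 and syntaxin 4 at the plasma membrane pair with VAMPs on granules to release histamine and other stored mediators, whereas Golgi and endosomal SNAREs carry newly made and recycled cargo. SM proteins and Munc13 proteins guide assembly, and NSF with its SNAP adaptors takes spent bundles apart. Only mRNA was measured here.

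All 36 genes reached 1 FPKM in 3 or more of the 6 samples of each comparison and were therefore tested. FPKM is a fragment count corrected for the length of the gene and the size of the library, so levels can be compared between genes. In the Ctrl samples, 7 members averaged 50 FPKM or more, 20 lay between 10 and 50 FPKM and 9 were under 10 FPKM, with a median of 23.6 FPKM. The highest was Stxbp5, which encodes tomosyn, an inhibitor with a VAMP-like motif, at 272 to 294 FPKM over the 9 samples. Next came Vamp2 and the Golgi SNARE Bet1. The lowest was Cplx2 (complexin 2, a clamp and activator of assembled SNAREs), at 0.68 to 1.57 FPKM. Replicates were close: the median coefficient of variation of the members was 4.84% in Ctrl, 4.58% in DNP and 4.38% in PF samples.

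The test was limma, run on log2(FPKM + 1), and all fold changes below are on that scale, where changes of weakly expressed genes come out too small. A gene was called changed at a Benjamini-Hochberg adjusted p of at most 0.05 over all genes tested. The 3 comparisons share samples, so their calls are not independent of each other. After antigen (DNP vs Ctrl), 16 of the 36 members changed, 8 higher and 8 lower, or 44.4% against 29.2% of all 10392 genes tested (14.7% higher and 14.4% lower). Between the stimulated groups (PF vs DNP), 18 members changed, 8 higher and 10 lower, or 50.0% against 48.8% of 10329 genes (18.1% higher and 30.7% lower). That share lay close to the background. The direction of the calls moved with the scaling, for members and for all genes alike. In PF vs DNP the split was 12 higher and 9 lower of 35 members tested after scaling by median ratios (24.5% of all genes higher and 26.6% lower), and 5 higher and 14 lower after every sample was scaled to the same FPKM total (equal-sum scaling; 8.42% of all genes higher and 41.7% lower). In PF vs Ctrl, 24 members changed, 12 in each direction, or 66.7% against 57.7% of 10361 genes (23.1% higher and 34.6% lower). That even split held under the deposited scaling, whereas median ratios gave 16 higher and 11 lower (28.3% and 30.7% of all genes) and equal-sum scaling 10 higher and 14 lower (15.2% and 41.7% of all genes). In bulk RNA, fewer cells with a transcript and less of it per cell cannot be told apart.

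**Figure D1:**
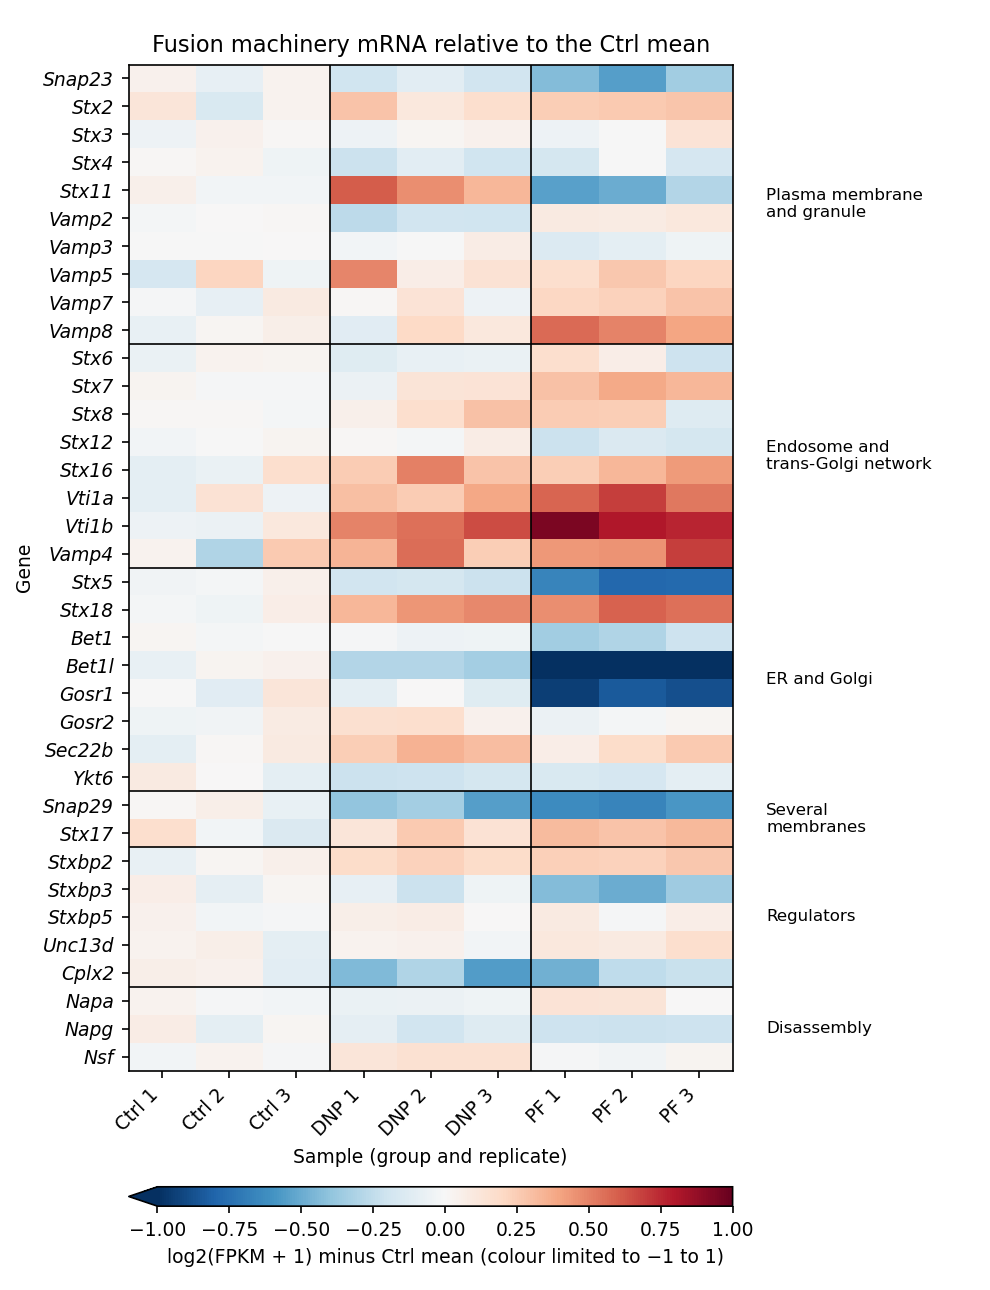
Heat map of the 36 genes (rows, ordered by the membrane they serve) in the 9 samples (columns). Colour is log2(FPKM + 1) minus the Ctrl mean of the gene and is limited to between -1 and 1. The PF columns are darkest blue for Bet1l, Gosr1 and Stx5 and darkest red for Vti1b.

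The members moved in both directions rather than as a block. The median log2 fold change of the members was 0.03 in DNP vs Ctrl, 0.01 in PF vs DNP and 0.04 in PF vs Ctrl, beside medians of -0.01, -0.04 and -0.05 over all genes tested. The summed FPKM of all members stayed between 1295 and 1341 in the 9 samples. Most changes were small. No member was called with a log2 fold change of at least 1 in size in DNP vs Ctrl (0.346% of all genes). Bet1l alone was in PF vs DNP (2.36% of all genes) and in PF vs Ctrl (3.37% of all genes). Over the alternative settings, the change of Stx11 in PF vs DNP went as low as -1.0049.

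The largest change among the members was in Bet1l, which encodes GS15, a Qc-SNARE of transport within the Golgi. Its promoter and those of Gosr1 and Stx5, which encode partners of GS15 and fell with it in the PF samples, are printed here as the 250 bases before the gene's start in the RefSeq table of build GRCr8 (the deposited values were made on build rn6). Capitals mark a GC box (GGGCGG or its reverse complement CCGCCC) or a CCAAT box (CCAAT or ATTGG). Bet1l lies at chr1:205364707-205364956 on the minus strand, Gosr1 at chr10:62105316-62105565 on the minus strand and Stx5 at chr1:215066282-215066531 on the plus strand.
Bet1l: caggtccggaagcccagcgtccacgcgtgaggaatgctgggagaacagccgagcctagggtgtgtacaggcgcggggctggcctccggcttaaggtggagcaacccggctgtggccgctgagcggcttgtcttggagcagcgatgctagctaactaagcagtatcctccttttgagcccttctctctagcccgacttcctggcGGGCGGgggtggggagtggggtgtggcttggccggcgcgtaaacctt
Gosr1: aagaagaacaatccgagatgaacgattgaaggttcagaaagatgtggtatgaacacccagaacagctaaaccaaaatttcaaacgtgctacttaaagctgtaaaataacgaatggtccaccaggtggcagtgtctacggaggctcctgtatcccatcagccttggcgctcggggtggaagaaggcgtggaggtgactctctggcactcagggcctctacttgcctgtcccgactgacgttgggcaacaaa
Stx5: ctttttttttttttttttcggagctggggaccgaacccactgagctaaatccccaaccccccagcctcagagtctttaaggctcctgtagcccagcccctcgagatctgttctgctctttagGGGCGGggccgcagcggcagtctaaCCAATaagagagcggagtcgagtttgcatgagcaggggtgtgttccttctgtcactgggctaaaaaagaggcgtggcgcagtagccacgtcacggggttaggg

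The Bet1l window held a GC box from 47 to 42 bases before the start, the Stx5 window held a GC box from 128 to 123 and a CCAAT box from 103 to 99 bases before it, and neither motif was found in the Gosr1 window. A promoter was given for 34 of the 36 members, Vamp3 and Vamp7 being the others. A GC box was present in 23 of the 34 (67.6%), beside 30.5% of all 33469 promoters, and a CCAAT box in 8 (23.5%), beside 34.0%. The median GC content of the windows was 62.0% for members and 51.2% for all promoters. The 33469 promoters were not limited to genes expressed in these cells, whereas all members passed the filter on expression. Promoters of the genes tested were not set beside the members. Of motifs of antigen-induced factors, the AP-1 site TGANTCA was in 1 member (Gosr2) and 6.34% of all promoters, the CRE TGACGTCA in 1 member (Napa) and 1.59%, and the EGR site GCGTGGGCG in 2 members (Sec22b and Vamp2) and 0.478%. The E-box CACGTG was in 5 members (14.7%) and 5.59% of all promoters. All motifs were searched on both strands, and letters of a GC box and an EGR site can overlap. A match describes the letters only.

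Bet1l was at 21.4, 23.1 and 23.3 FPKM in Ctrl, 18.3, 18.3 and 17.7 in DNP and 4.02, 4.22 and 4.33 in PF samples. The 3 groups did not overlap. Bet1l fell after antigen (log2 fold change -0.31, SE 0.0473, adjusted p = 0.00248) to 0.8 of its Ctrl mean. In the PF samples it fell much further, to 0.232 of its DNP mean (log2 fold change -1.88, SE 0.0547, adjusted p = 1.25e-07) and 0.185 of its Ctrl mean (log2 fold change -2.18, SE 0.0589, adjusted p = 1.88e-07). On this scale its decrease from Ctrl to PF was the largest of all 10361 genes tested, and its decrease from DNP to PF ranked 20 from the lowest among 10329. In RefSeq, Bet1l overlaps Ric8a, a gene on the opposite strand, and whether strand was used in counting is not stated. Ric8a was at 13.4 to 14.6 FPKM in the Ctrl, 17.2 to 19.3 in the DNP and 13.8 to 15.2 in the PF samples, with log2 fold changes of 0.33 in DNP vs Ctrl (adjusted p = 0.00505), -0.28 in PF vs DNP (adjusted p = 0.00527) and 0.06 in PF vs Ctrl (adjusted p = 0.445). Bet1l and Ric8a moved in opposite directions in DNP vs Ctrl and both fell in PF vs DNP, and the part of either in the other's values was not tested.

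Gosr1 (GS28), the Golgi Qb-SNARE that joins GS15, was at 10.9, 10.0 and 11.9 FPKM in Ctrl, 10.1, 11.0 and 9.95 in DNP and 5.20, 5.64 and 5.49 in PF samples. Ctrl and DNP overlapped, and every PF sample was below both. Gosr1 fell in PF vs DNP (log2 fold change -0.82, SE 0.0631, adjusted p = 1.37e-05) and in PF vs Ctrl (log2 fold change -0.89, SE 0.0741, adjusted p = 2.35e-05). Stx5, the Qa-SNARE of the Golgi and a partner of GS28 and of membrin, was at 42.0, 42.6 and 44.7 FPKM in Ctrl, 37.5, 37.9 and 37.0 in DNP and 26.9, 24.6 and 24.8 in PF samples. Its groups did not overlap. Stx5 fell after antigen (log2 fold change -0.19, SE 0.0379, adjusted p = 0.00676) and again in PF vs DNP (log2 fold change -0.54, SE 0.0446, adjusted p = 1.92e-05), so that PF samples were at 0.59 of the Ctrl mean (log2 fold change -0.74, SE 0.0497, adjusted p = 7.85e-06). Ykt6, the lipid-anchored R-SNARE of the same bundle, was at 52.0, 48.9 and 45.5 FPKM in Ctrl, 41.8, 42.1 and 43.0 in DNP and 43.7, 43.2 and 45.4 in PF samples. All DNP and PF samples were below the Ctrl samples. Ykt6 fell in DNP vs Ctrl (log2 fold change -0.20, SE 0.05, adjusted p = 0.0187, not called without Ctrl replicate 2 or DNP replicate 1 or 2, adjusted p up to 0.0581), whereas its fall in PF vs Ctrl was at the threshold (log2 fold change -0.14, SE 0.0536, adjusted p = 0.0496, not called without Ctrl replicate 1 or 2 or PF replicate 1, 2 or 3, adjusted p up to 0.158).

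**Figure D2:**
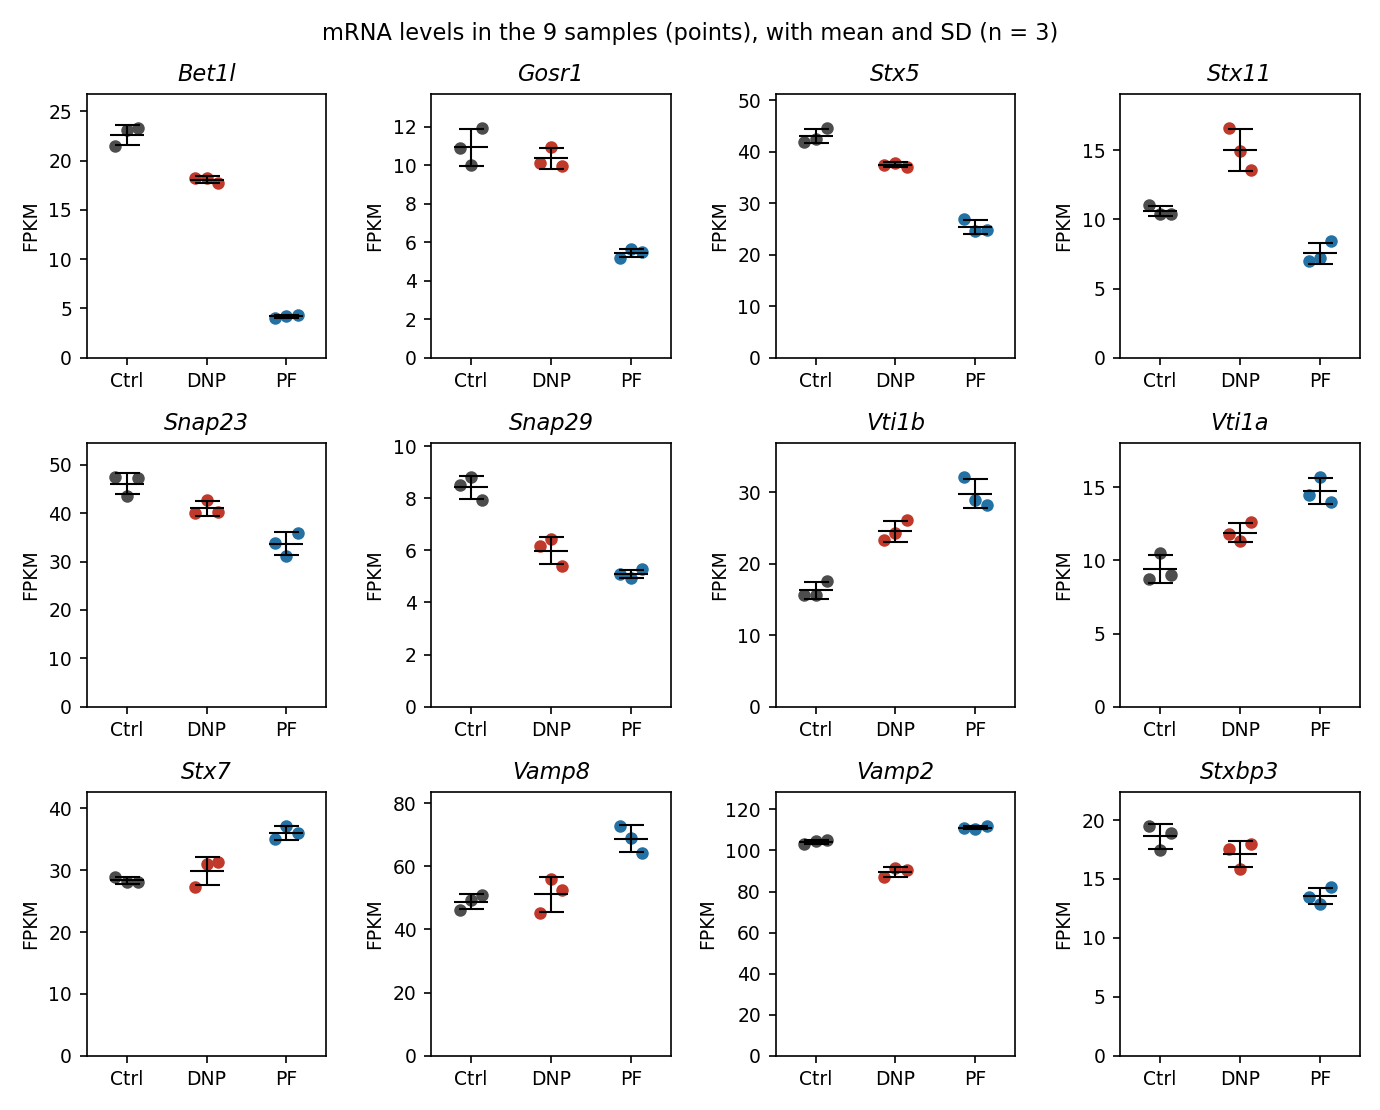
FPKM of 12 of the genes in each sample (points), with mean and SD (black, n = 3) per group; each vertical axis starts at 0. Bet1l lies between 4.02 and 4.33 FPKM in the PF samples and at 17.7 FPKM or more in all others, while Vti1b and Vti1a step upward and Stx11 is highest in the DNP samples.

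In both PF comparisons, the other ER and Golgi SNAREs changed less than Bet1l, Gosr1 and Stx5. Bet1, a Qc-SNARE related to GS15, was at 84.1, 81.7 and 82.8 FPKM in Ctrl, 82.1, 79.9 and 80.4 in DNP and 65.0, 66.9 and 71.8 in PF samples. It fell in PF vs DNP (log2 fold change -0.25, SE 0.0415, adjusted p = 0.00115) and PF vs Ctrl (log2 fold change -0.29, SE 0.0445, adjusted p = 0.000733), with Ctrl and DNP overlapping. Gosr2 (membrin) ranged from 44.6 to 52.2 FPKM and was lower in PF vs DNP (log2 fold change -0.14, SE 0.0435, adjusted p = 0.0242, not called without DNP replicate 1 or 2 or PF replicate 1 or 2, adjusted p up to 0.0882), a call that was lost after scaling by median ratios. Sec22b, the R-SNARE of the ER, went the other way after antigen. Sec22b was at 28.2, 30.4 and 32.1 FPKM in Ctrl, 36, 38.6 and 37.6 in DNP and 31.6, 34.4 and 36.4 in PF samples, and it rose in DNP vs Ctrl (log2 fold change 0.30, SE 0.0535, adjusted p = 0.00457), with PF samples overlapping both other groups. Stx18, the Qa-SNARE of the ER, was at 11.9, 11.7 and 12.7 FPKM in Ctrl, 15.5, 16.8 and 17.2 in DNP and 17.1, 18.7 and 18.2 in PF samples. It rose in DNP vs Ctrl (log2 fold change 0.42, SE 0.0577, adjusted p = 0.00147) and was 1.49 times its Ctrl mean in PF samples (log2 fold change 0.54, SE 0.0569, adjusted p = 8.4e-05), with DNP and PF overlapping.

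Across the 8 ER and Golgi SNAREs, 2 rose and 3 fell in DNP vs Ctrl, none rose and 5 fell in PF vs DNP, and 1 rose and 5 fell in PF vs Ctrl. Of all genes tested, 14.7% rose and 14.4% fell in DNP vs Ctrl. The shares were 18.1% and 30.7% in PF vs DNP, and 23.1% and 34.6% in PF vs Ctrl. Those after rescaling are given above, and no difference from them was tested. After scaling by median ratios, 2 of the 8 rose (Stx18 and Ykt6) and 4 fell in PF vs DNP, and after equal-sum scaling none rose and 6 fell. In PF vs Ctrl, median-ratio scaling gave 2 higher (Stx18 and Sec22b) and 4 lower. Their summed level was 293 to 302 FPKM in Ctrl, 291 to 297 in DNP and 238 to 253 in PF samples.

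Ratios between related genes within a sample do not depend on how samples are scaled. Bet1l made up 20.3% to 22.0% of the sum of Bet1 and Bet1l in the Ctrl samples, 18.0% to 18.6% in the DNP samples and 5.69% to 5.93% in the PF samples. Gosr1 made up 18.1% to 19.5% of Gosr1 and Gosr2 in Ctrl, 16.3% to 17.4% in DNP and 10.4% to 10.9% in PF samples. In both pairs the groups did not overlap. The ER and Golgi SNAREs together took 22.6% to 23.1% of the summed FPKM of the 36 genes in Ctrl, 22.1% to 22.5% in DNP and 18.2% to 19.2% in PF samples.

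**Figure D3:**
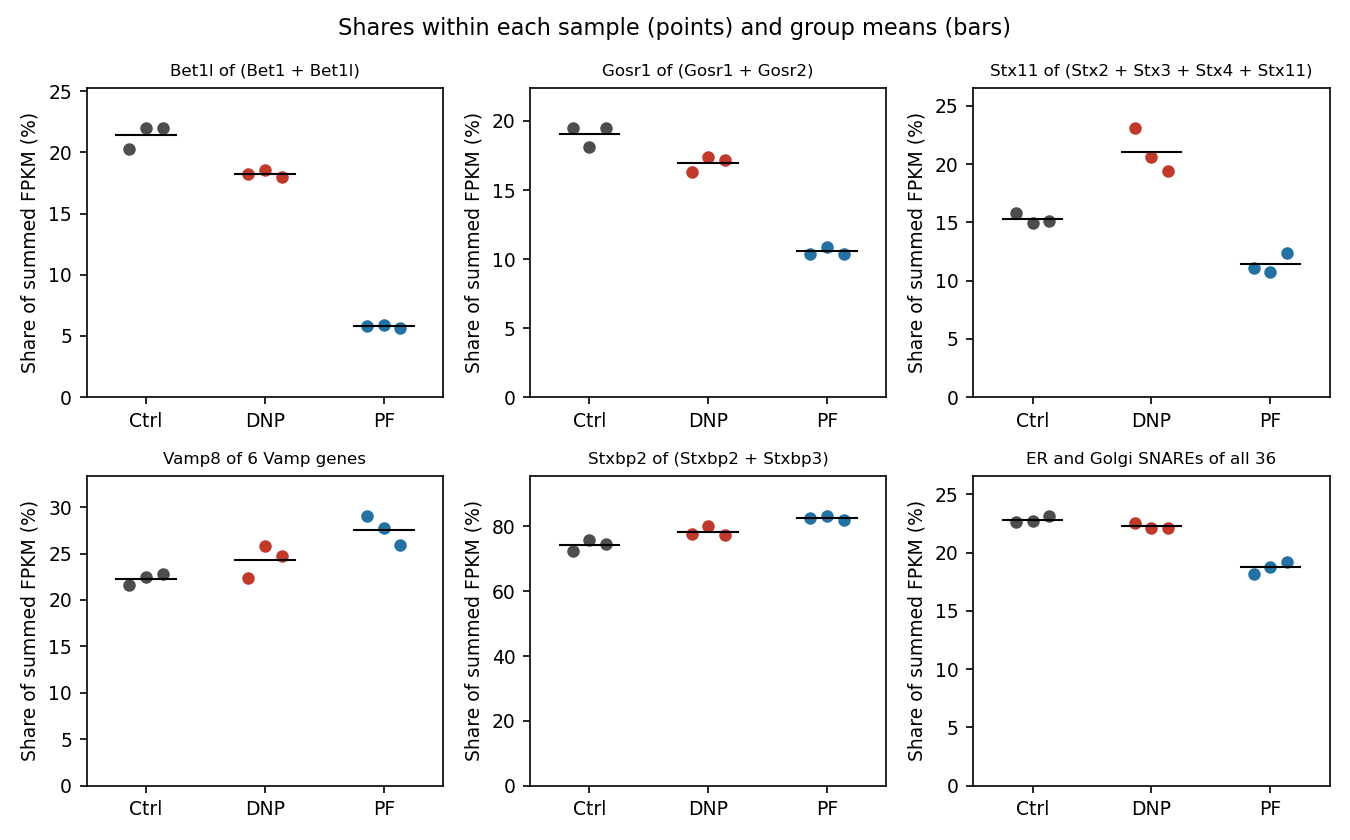
Share of summed FPKM (%) within each sample (points) and group mean (bars) for 6 ratios; each vertical axis starts at 0. The Bet1l share is 5.69% to 5.93% in the PF samples against 18.0% or more in the others, and the Stx11 share is highest in the DNP samples.

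Most SNAREs of endosomes and the TGN that changed were higher. Of these 8 genes, 3 rose and none fell in DNP vs Ctrl, 3 rose and 1 fell in PF vs DNP, and 5 rose and 1 fell in PF vs Ctrl; these counts were the same after either rescaling. Of all genes tested, 14.7% rose and 14.4% fell in DNP vs Ctrl. The shares were 18.1% and 30.7% in PF vs DNP, and 23.1% and 34.6% in PF vs Ctrl. No difference from these shares was tested. The median log2 fold change of the 8 genes was 0.24 in DNP vs Ctrl, 0.12 in PF vs DNP and 0.34 in PF vs Ctrl. The clearest rise was in Vti1b, a Qb-SNARE of late endosomes, whose promoter is printed with the marks used above (chr6:103709488-103709737 on the minus strand) because it rose at each step.
Vti1b: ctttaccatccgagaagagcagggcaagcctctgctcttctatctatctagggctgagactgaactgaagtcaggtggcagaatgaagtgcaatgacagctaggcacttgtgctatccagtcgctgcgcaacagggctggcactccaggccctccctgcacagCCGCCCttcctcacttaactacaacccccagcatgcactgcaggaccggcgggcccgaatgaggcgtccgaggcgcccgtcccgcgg

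The Vti1b window held a GC box from 87 to 82 bases before the start. Vti1b was at 15.6, 15.6 and 17.6 FPKM in Ctrl, 23.2, 24.3 and 26.1 in DNP and 32.1, 28.9 and 28.2 in PF samples. Its groups did not overlap. Vti1b rose in DNP vs Ctrl (log2 fold change 0.57, SE 0.0629, adjusted p = 0.000596) and in PF vs DNP (log2 fold change 0.27, SE 0.0607, adjusted p = 0.00603), reaching 1.83 times the Ctrl mean in PF samples (log2 fold change 0.83, SE 0.0668, adjusted p = 1.89e-05). Vti1a, the related Qb-SNARE of the TGN, was at 8.70, 10.5 and 9.01 FPKM in Ctrl, 11.8, 11.4 and 12.6 in DNP and 14.5, 15.7 and 14.0 in PF samples, again without overlap. It rose in DNP vs Ctrl (log2 fold change 0.31, SE 0.0754, adjusted p = 0.016, not called without DNP replicate 3, adjusted p = 0.0573), in PF vs DNP (log2 fold change 0.28, SE 0.0613, adjusted p = 0.00465) and in PF vs Ctrl (log2 fold change 0.60, SE 0.0773, adjusted p = 0.000252). Vti1a and Vti1b were the only members called higher in all 3 comparisons.

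Stx7, the Qa-SNARE that forms a late endosomal bundle with Vti1b, was at 28.9, 28.1 and 28.0 FPKM in Ctrl, 27.2, 31.1 and 31.3 in DNP and 35.0, 37.2 and 36 in PF samples. Ctrl and DNP overlapped and all PF samples were higher. Stx7 rose in PF vs DNP (log2 fold change 0.27, SE 0.0569, adjusted p = 0.00456) and PF vs Ctrl (log2 fold change 0.34, SE 0.0423, adjusted p = 0.000219). Its partner Stx8 ranged from 17.4 to 23.6 FPKM and was called in no comparison. At the TGN, the Qa-SNARE Stx16 was at 5.81, 5.96 and 7.23 FPKM in Ctrl, 7.71, 9.36 and 7.91 in DNP and 7.68, 8.21 and 8.79 in PF samples. Stx16 rose in DNP vs Ctrl (log2 fold change 0.35, SE 0.0968, adjusted p = 0.0281, not called without Ctrl replicate 1 or 2 or DNP replicate 2 or 3, adjusted p up to 0.0877) and PF vs Ctrl (log2 fold change 0.33, SE 0.088, adjusted p = 0.0107), with DNP and PF overlapping. The R-SNARE Vamp4, which pairs with Stx16, was at 3.68, 2.71 and 4.46 FPKM in Ctrl, 4.78, 5.71 and 4.40 in DNP and 5.15, 5.21 and 6.38 in PF samples. Ctrl and DNP overlapped, and all PF samples were above the Ctrl samples. Vamp4 rose in PF vs Ctrl (log2 fold change 0.52, SE 0.14, adjusted p = 0.0118), and its Ctrl values were widely spread for their level. The TGN Qc-SNARE Stx6 ranged from 6.12 to 8.26 FPKM and was called in no comparison. Stx12 (syntaxin 13 of recycling endosomes) ranged from 51.0 to 62.4 FPKM and was the member of this class that fell, in PF vs DNP (log2 fold change -0.20, SE 0.0387, adjusted p = 0.00288) and PF vs Ctrl (log2 fold change -0.18, SE 0.0384, adjusted p = 0.00438).

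The plasma membrane and granule SNAREs, those nearest to mediator release, moved in both directions. Of these 10 genes, 1 rose and 3 fell in DNP vs Ctrl, 3 rose and 2 fell in PF vs DNP, and 4 rose and 2 fell in PF vs Ctrl. After equal-sum scaling, 2 rose and 3 fell in PF vs DNP and 2 rose and 4 fell in PF vs Ctrl. Median-ratio scaling gave 3 higher and 2 lower in PF vs DNP, and 5 higher and 2 lower in PF vs Ctrl. Set beside them, the 16 Golgi and endosomal SNAREs gave 5 higher and 3 lower in DNP vs Ctrl, 3 higher and 6 lower in PF vs DNP, and 6 in each direction in PF vs Ctrl. Their split in PF vs DNP moved with the scaling. Median ratios gave 2 higher and 4 lower among the ER and Golgi genes, and equal-sum scaling none higher and 6 lower. The endosomal and TGN genes gave 3 higher and 1 lower by either. The plasma membrane and granule SNAREs summed to 327 to 334 FPKM in Ctrl, 308 to 326 in DNP and 342 to 346 in PF samples. Of all genes tested, 14.7% rose and 14.4% fell in DNP vs Ctrl. The shares were 18.1% and 30.7% in PF vs DNP, and 23.1% and 34.6% in PF vs Ctrl. Neither the difference between the classes nor that from these shares was tested. The promoters of Vamp8 (chr4:106005643-106005892 on the minus strand) and Stx11 (chr1:9140220-9140469 on the minus strand) are shown because these genes had the largest rise and the largest fall of the class in PF vs DNP.
Vamp8: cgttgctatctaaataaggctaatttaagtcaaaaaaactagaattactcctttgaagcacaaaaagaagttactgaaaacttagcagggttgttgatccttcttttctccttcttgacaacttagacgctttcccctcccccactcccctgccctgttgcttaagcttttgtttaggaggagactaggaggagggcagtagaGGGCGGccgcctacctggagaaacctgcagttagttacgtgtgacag
Stx11: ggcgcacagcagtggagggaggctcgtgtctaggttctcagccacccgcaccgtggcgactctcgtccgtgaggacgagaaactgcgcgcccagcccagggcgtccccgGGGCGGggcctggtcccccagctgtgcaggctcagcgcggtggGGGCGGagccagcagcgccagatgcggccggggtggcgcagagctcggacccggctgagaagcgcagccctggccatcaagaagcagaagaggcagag

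The Vamp8 window held a GC box from 47 to 42 bases before the start, and the Stx11 window held GC boxes from 141 to 136 and from 98 to 93 bases before it. Vamp8 encodes an R-SNARE of endosomes and MC granules (endobrevin) and was at 46.1, 49.3 and 50.8 FPKM in Ctrl, 45, 55.9 and 52.4 in DNP and 72.8, 69.0 and 64.3 in PF samples. The Ctrl and DNP samples overlapped and did not differ beyond their spread (log2 fold change 0.06, SE 0.0754, adjusted p = 0.564), with a 95% interval of the difference from -0.11 to 0.24. All PF samples were higher, and Vamp8 rose in PF vs DNP (log2 fold change 0.42, SE 0.0764, adjusted p = 0.00181) and in PF vs Ctrl (log2 fold change 0.49, SE 0.0562, adjusted p = 0.000136). Stx11, a Qa-SNARE of blood cells that is required for granule release by cytotoxic lymphocytes, was at 11.0, 10.4 and 10.4 FPKM in Ctrl, 16.6, 15.0 and 13.6 in DNP and 6.97, 7.21 and 8.44 in PF samples. The 3 groups did not overlap, with DNP highest and PF lowest. Stx11 rose in DNP vs Ctrl (log2 fold change 0.46, SE 0.0734, adjusted p = 0.00275), fell in PF vs DNP to 0.501 of the DNP mean (log2 fold change -0.91, SE 0.0882, adjusted p = 5.25e-05), and was below Ctrl in PF samples (log2 fold change -0.44, SE 0.0756, adjusted p = 0.00117). It was the only member that was called higher after antigen and lower in both PF comparisons. Within the plasma membrane syntaxins Stx2, Stx3, Stx4 and Stx11, Stx11 held 14.9% to 15.8% of the summed FPKM in Ctrl, 19.4% to 23.1% in DNP and 10.7% to 12.4% in PF samples.

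Snap23, the SNAP-25 relative that supplies the Qb and Qc helices for granule fusion, was at 47.5, 43.6 and 47.2 FPKM in Ctrl, 40.0, 42.8 and 40.3 in DNP and 33.9, 31.2 and 35.9 in PF samples. Its groups did not overlap and stepped downward. Snap23 fell in DNP vs Ctrl (log2 fold change -0.16, SE 0.0468, adjusted p = 0.0308, not called without Ctrl replicate 1 or 3 or DNP replicate 1 or 3, adjusted p up to 0.0968), a call that 8 of 14 alternative settings lost, and in PF vs DNP (log2 fold change -0.28, SE 0.0548, adjusted p = 0.00287) and PF vs Ctrl (log2 fold change -0.44, SE 0.0598, adjusted p = 0.000319). In RefSeq it overlaps Lrrc57 on the opposite strand, which had log2 fold changes of 0.05 (adjusted p = 0.505), -0.29 (adjusted p = 0.00367) and -0.24 (adjusted p = 0.0053) in the same comparisons; the share of reads this could move was not tested. Stx4, the Qa partner of SNAP-23, was at 28.5, 28.9 and 27.4 FPKM in Ctrl, 24.2, 26.2 and 24.5 in DNP and 24.9, 28.3 and 25.1 in PF samples. It fell in DNP vs Ctrl (log2 fold change -0.17, SE 0.0462, adjusted p = 0.0233, not called without Ctrl replicate 1 or 2 or DNP replicate 1 or 3, adjusted p up to 0.0819). PF samples overlapped both other groups, and Stx4 was not called in PF vs DNP (log2 fold change 0.06, SE 0.0582, adjusted p = 0.421; 95% interval -0.07 to 0.19) or in PF vs Ctrl (log2 fold change -0.11, SE 0.0574, adjusted p = 0.12).

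Vamp2, the R-SNARE of regulated secretory vesicles, was at 103, 105 and 105 FPKM in Ctrl, 86.9, 91.3 and 90.4 in DNP and 111, 111 and 112 in PF samples. Its groups did not overlap, with DNP lowest and PF highest. Vamp2 fell in DNP vs Ctrl (log2 fold change -0.22, SE 0.0325, adjusted p = 0.00219) and rose in PF vs DNP (log2 fold change 0.31, SE 0.032, adjusted p = 7.76e-05). Its excess in PF vs Ctrl was small (log2 fold change 0.09, SE 0.0325, adjusted p = 0.0379, not called when any of the 6 samples was left out, adjusted p up to 0.102) and was lost after equal-sum scaling. Vamp7, a longin R-SNARE of late endosomes, lysosomes and granules, was at 15.9, 15.1 and 17.1 FPKM in Ctrl, 16.1, 17.7 and 15.4 in DNP and 18.6, 18.9 and 19.7 in PF samples. Ctrl and DNP overlapped (log2 fold change 0.03, SE 0.066, adjusted p = 0.757), and all PF samples were higher, both in PF vs DNP (log2 fold change 0.21, SE 0.0581, adjusted p = 0.0159, not called without DNP replicate 1 or 3, adjusted p up to 0.0567) and in PF vs Ctrl (log2 fold change 0.24, SE 0.057, adjusted p = 0.0066). The PF vs DNP call of Vamp7 was lost after equal-sum scaling. Within the 6 Vamp genes, Vamp8 held 21.6% to 22.8% of the summed FPKM in Ctrl, 22.4% to 25.8% in DNP and 25.9% to 29.0% in PF samples, while Vamp2 held 47.0% to 48.2%, 42.1% to 43.2% and 44.2% to 45.1%.

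Stx2, a further plasma membrane Qa-SNARE, was at 6.49, 5.21 and 6.07 FPKM in Ctrl, 7.43, 6.42 and 6.74 in DNP and 7.17, 7.29 and 7.35 in PF samples. Stx2 rose in PF vs Ctrl (log2 fold change 0.26, SE 0.0791, adjusted p = 0.0205, not called without Ctrl replicate 2 or PF replicate 3, adjusted p up to 0.0586), with Ctrl and DNP overlapping. The remaining genes of the class were called in no comparison. Stx3, a Qa-SNARE of the plasma membrane and granules, ranged from 23.6 to 27.0 FPKM. Vamp3 (cellubrevin of recycling endosomes) ranged from 35.8 to 41.7 FPKM, and Vamp5, a plasma membrane VAMP known from muscle, from 5.76 to 9.65 FPKM.

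**Figure D4:**
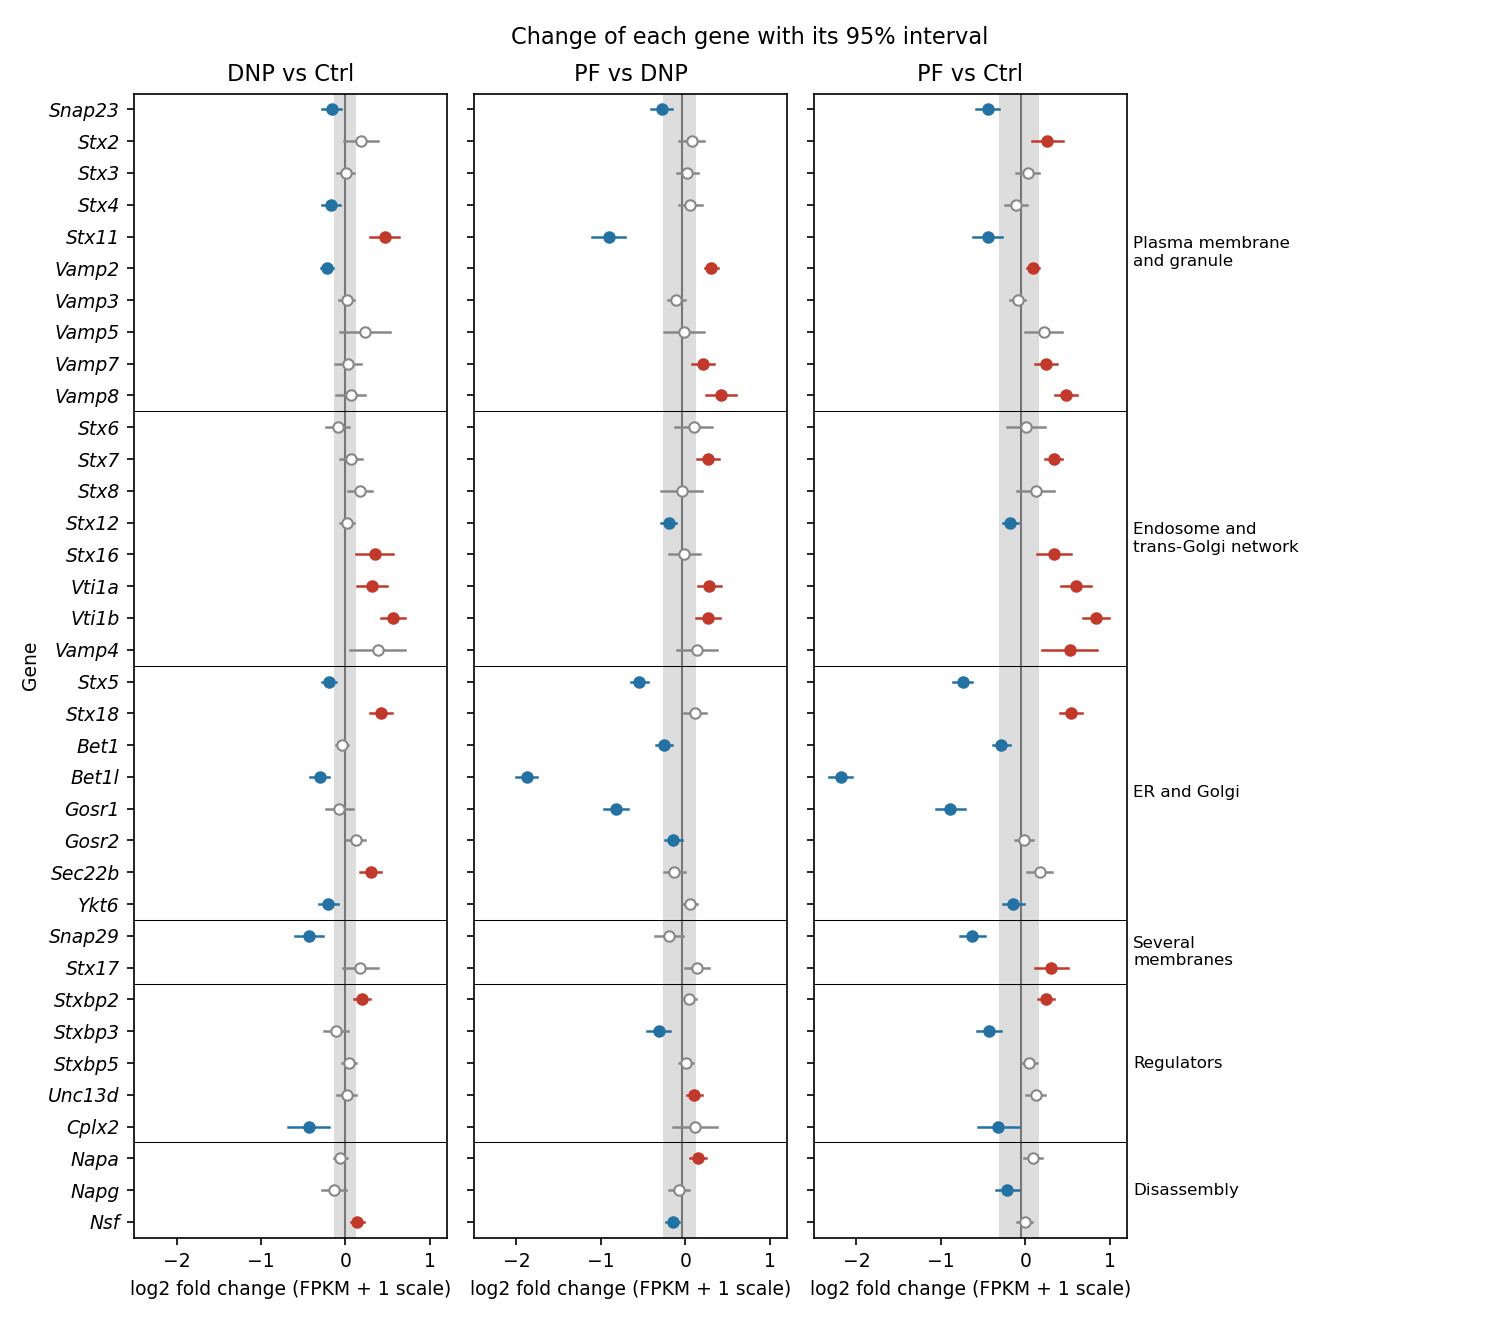
log2 fold change (on FPKM + 1) of each gene with its 95% interval in the 3 comparisons. Filled red points were called higher, filled blue points lower and open points not called; the grey band spans the middle quartiles of all genes tested and the grey line is their median. Bet1l stands at -1.88 in PF vs DNP and -2.18 in PF vs Ctrl, far left of all other members, and 5 of the 8 endosomal and TGN genes lie to the right of the band in PF vs Ctrl.

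The SNAREs that serve several membranes parted. Snap29, a relative of SNAP-23 found on many membranes and in autophagosome fusion, was at 8.50, 8.82 and 7.93 FPKM in Ctrl, 6.15, 6.42 and 5.41 in DNP and 5.09, 4.94 and 5.27 in PF samples. All DNP and PF samples were below the Ctrl samples. Snap29 fell in DNP vs Ctrl (log2 fold change -0.43, SE 0.0747, adjusted p = 0.0041) and PF vs Ctrl (log2 fold change -0.63, SE 0.0648, adjusted p = 7.39e-05). Stx17, its Qa partner on autophagosomes, was at 6.18, 5.27 and 4.76 FPKM in Ctrl, 5.94, 6.63 and 6.03 in DNP and 6.94, 6.79 and 6.98 in PF samples. It rose in PF vs Ctrl (log2 fold change 0.31, SE 0.0862, adjusted p = 0.014), and its Ctrl and DNP samples overlapped.

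Among the regulators, the SM proteins diverged. Stxbp2 (Munc18-2), which serves degranulation in MCs and cytotoxic cells, was at 51.3, 54.6 and 55.9 FPKM in Ctrl, 61.4, 63.3 and 61.4 in DNP and 63.8, 63.3 and 65.3 in PF samples. Stxbp2 rose in DNP vs Ctrl (log2 fold change 0.20, SE 0.0409, adjusted p = 0.0083) and PF vs Ctrl (log2 fold change 0.25, SE 0.0432, adjusted p = 0.00138). In PF vs DNP the difference was not called (log2 fold change 0.05, SE 0.0328, adjusted p = 0.262), was called higher after scaling by median ratios (log2 fold change 0.09, adjusted p = 0.0326) and turned negative after equal-sum scaling. Stxbp3 (Munc18-3), the SM partner of syntaxin 4, was at 19.5, 17.5 and 18.9 FPKM in Ctrl, 17.5, 15.9 and 18.0 in DNP and 13.5, 12.9 and 14.3 in PF samples. It fell in PF vs DNP (log2 fold change -0.32, SE 0.0618, adjusted p = 0.00277) and in PF vs Ctrl (log2 fold change -0.43, SE 0.0609, adjusted p = 0.00042), with Ctrl and DNP overlapping. Stxbp2 held 72.4% to 75.8% of the sum of both in Ctrl, 77.3% to 80.0% in DNP and 82.0% to 83.1% in PF samples. Stxbp5 was called in no comparison.

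Unc13d (Munc13-4), the factor that primes granules for fusion, was at 44.4, 45.1 and 40.4 FPKM in Ctrl, 44.4, 44.5 and 42.4 in DNP and 46.6, 46.1 and 48.7 in PF samples. Ctrl and DNP overlapped (log2 fold change 0.02, SE 0.0484, adjusted p = 0.822). The PF samples were all higher than the others, and the difference just met the threshold in PF vs DNP (log2 fold change 0.11, SE 0.0387, adjusted p = 0.0496, not called when any of the 6 samples was left out, adjusted p up to 0.157) and was lost in 13 of 15 alternative settings. It missed the threshold in PF vs Ctrl (log2 fold change 0.12, SE 0.0508, adjusted p = 0.0678). Cplx2 was at 1.57, 1.55 and 1.30 FPKM in Ctrl, 0.82, 1.01 and 0.68 in DNP and 0.77, 1.07 and 1.12 in PF samples, with all DNP and PF samples below the Ctrl samples. It fell in DNP vs Ctrl (log2 fold change -0.43, SE 0.106, adjusted p = 0.0175, not called without Ctrl replicate 1 or 2 or DNP replicate 3, adjusted p up to 0.0571) and in PF vs Ctrl (log2 fold change -0.32, SE 0.106, adjusted p = 0.0296, not called without Ctrl replicate 1 or 2 or PF replicate 1, adjusted p up to 0.0945), but it was near the filter on low values, which all 3 Ctrl samples and 1 of the 3 DNP samples reached.

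The disassembly factors moved by small amounts. Nsf, the ATPase, ranged from 49.4 to 56.5 FPKM. It rose in DNP vs Ctrl (log2 fold change 0.14, SE 0.034, adjusted p = 0.0162, not called without DNP replicate 2 or 3, adjusted p up to 0.0578) and fell in PF vs DNP (log2 fold change -0.15, SE 0.0342, adjusted p = 0.00654). Napa (alpha-SNAP), its adaptor, ranged from 54.0 to 62.3 FPKM and was higher in PF vs DNP (log2 fold change 0.15, SE 0.0423, adjusted p = 0.017, not called without DNP replicate 1 or 2 or PF replicate 1 or 2, adjusted p up to 0.0629), a call lost after equal-sum scaling. Napg (gamma-SNAP) was at 12.0, 10.6 and 11.5 FPKM in Ctrl, 10.6, 9.85 and 10.3 in DNP and 9.69, 9.65 and 9.69 in PF samples. It fell in PF vs Ctrl (log2 fold change -0.21, SE 0.0604, adjusted p = 0.0159, not called without Ctrl replicate 1, adjusted p = 0.0589).

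Grouped by textbook fusion bundles (a grouping written after the values were seen), the intra-Golgi set of Stx5, Gosr1, Bet1l and Ykt6 had 3 of 4 genes lower in DNP vs Ctrl, 3 lower in PF vs DNP and 4 lower in PF vs Ctrl, with none higher. The ER-to-Golgi set of Stx5, Gosr2, Bet1 and Sec22b, which shares Stx5 with it, had 1 higher and 1 lower in DNP vs Ctrl, none higher and 3 lower in PF vs DNP, and none higher and 2 lower in PF vs Ctrl. The late endosomal set of Stx7, Vti1b, Stx8 and Vamp8 had 1 of 4 higher in DNP vs Ctrl and 3 higher in PF vs DNP and in PF vs Ctrl, with none lower. The TGN set of Stx16, Vti1a, Stx6 and Vamp4 had 2 higher in DNP vs Ctrl, 1 in PF vs DNP and 3 in PF vs Ctrl, with none lower. Of the 6 granule and plasma membrane genes Stx3, Stx4, Snap23, Vamp2, Vamp7 and Vamp8, 3 fell and none rose in DNP vs Ctrl, whereas 3 rose and 1 fell in PF vs DNP and in PF vs Ctrl. The autophagosomal set of Stx17, Snap29 and Vamp8 had 1 lower in DNP vs Ctrl, 1 higher in PF vs DNP, and 2 higher and 1 lower in PF vs Ctrl. Beside these small counts, 14.7% of all genes were higher and 14.4% lower in DNP vs Ctrl, 18.1% and 30.7% in PF vs DNP, and 23.1% and 34.6% in PF vs Ctrl. Some counts rest on unstable calls, as given above for single genes. The fall of Ykt6 in PF vs Ctrl was lost in 11 of 15 alternatives. After median-ratio scaling, Ykt6 was called higher in PF vs DNP. The falls of Snap23 and Stx4 after antigen were each lost when some single samples were left out. After equal-sum scaling, Vamp7 and Vamp8 were higher and Snap23 and Stx4 lower in PF vs Ctrl, with Vamp2 not called.

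Read across comparisons, 7 members were called in all 3 (Snap23, Stx11, Vamp2, Vti1a, Vti1b, Stx5 and Bet1l) and 6 in none (Stx3, Vamp3, Vamp5, Stx6, Stx8 and Stxbp5). Snap23, Stx5 and Bet1l were lower in each comparison. The number called in all 3 is not stable. The DNP vs Ctrl call was lost in 8 of 14 alternatives for Snap23 and in 1 of 14 for Vti1a. The PF vs Ctrl call of Vamp2 was lost in 10 of 15. How many of all genes tested follow these patterns, or those given above for Vti1a, Vti1b and Stx11, was not counted. These counts therefore have no background beside them. Counted by overlap instead, 19 members did not overlap between DNP and Ctrl (9 above and 10 below), beside 45.8% of all genes tested. In PF vs DNP 11 lay above and 13 below, beside 57.6%, and in PF vs Ctrl 13 each, beside 64.8%. A two-sided exact permutation test of a single gene cannot go below p = 0.1 with 3 samples against 3, and it gave 0.1 for each such gene.

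Other genes of the fusion pathway were read by counts from a list of 86 (further SNAREs and SM proteins, synaptotagmins, the exocyst, HOPS and CORVET tethers and Golgi tethers), of which 75 had a value and 51 were tested. Of these 51, 6 rose and 11 fell in DNP vs Ctrl, 4 rose and 14 fell in PF vs DNP, and 5 rose and 18 fell in PF vs Ctrl. Of 15 Golgi tethers, which catch vesicles before the Golgi SNAREs fuse them, 3 rose and 3 fell in DNP vs Ctrl, 1 rose and 6 fell in PF vs DNP, and 3 rose and 6 fell in PF vs Ctrl. Of the 9 exocyst genes, whose complex tethers secretory vesicles at the plasma membrane, 1 rose and 2 fell in DNP vs Ctrl and in PF vs DNP, and 1 rose and 6 fell in PF vs Ctrl. These counts stand beside the shares of all genes given above (29.2%, 48.8% and 57.7% called), and no difference from them was tested. Synaptotagmins, a family that includes calcium sensors of exocytosis, summed to 108 to 110 FPKM in Ctrl, 99.5 to 105 in DNP and 86.2 to 90.1 in PF samples. These sums rest on few genes, since 13 of the 18 with a value were under 1 FPKM in all samples. Of the 5 tested, 1 rose and 2 fell in DNP vs Ctrl. In PF vs DNP and in PF vs Ctrl, none rose and 2 fell. The neuronal SNARE Snap25 was at 0.38 FPKM or less in all samples.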

How the data were processed

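RNA-seq values of 9 RBL-2H3 samples were used, 3 each titled Ctrl, IgE/DNP and PF1 (here Ctrl, DNP and PF). The labels name Illumina library protocols and the study's methods a BGISEQ-500 sequencer. The authors filtered reads with SOAPnuke, and the submitters' processing notes name HISAT2 2.0.4, Bowtie2 2.2.5, RSEM 1.2.12 and build rn6. The deposited value per gene and sample is read as FPKM, since its heading names no unit. Read depth is unknown. A comparison of steps between low values (1 to 8 genes for each pair of samples) gave a relative depth of 0.99 to 1.01. It kept only genes whose values nearly matched within the pair. The estimate could therefore not come out far from 1 and does not show that depths were equal. Precision rests on the 3 replicates. Sums ranged from 573023 to 630069 FPKM. limma 3.58.1 in R 4.3.3 (lmFit, eBayes with trend) was run on log2(FPKM + 1) separately for each comparison, keeping genes that reached 1 FPKM in 3 or more of its 6 samples, with Benjamini-Hochberg adjustment over all genes tested and a threshold of 0.05. The fit was also run on simulated data, drawn as independent normal values with known shifts. Those data held no scaling difference and no batch, so the run cannot show how either bears on the calls. The members and lists were chosen with earlier results of these data known. Values in every sample are given for members called in any comparison with a log2 fold change of 0.2 or more in size, and for Bet1l, Snap23, Stx4, Vamp8, Vamp7, Vamp2, Stxbp2 and Unc13d. Promoters were matched by symbol. Alternatives were a pseudocount of 0.1, other filters, fits and scalings, a threshold of 0.01 and each sample left out.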

Additional observations from a re-analysis of the deposited data

How the results depend on the processing

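Of 58 called results of single members, none reversed and 37 kept their call in every alternative, among them every call of Bet1l, Gosr1, Stx5, Stx11, Vti1b and Vamp8. Members called in DNP vs Ctrl fell from 16 to 9 (5 higher, 4 lower) at a threshold of 0.01, where the share of all genes called fell from 29.2% to 14.1%. With each sample left out in turn they numbered 10 to 17, 10 (5 in each direction) being without DNP replicate 3, and the share of all genes ranged from 20.3% (without that replicate) to 26.5%. The ranges were 14 to 20 in PF vs DNP (40.7% to 46.7% of all genes) and 20 to 24 in PF vs Ctrl (50.6% to 53.9%). With the PF sample labelled 4 h in both fields as the only PF sample (chosen after seeing the data, and assuming that it varies like the other group), 15 of 35 members were called in PF vs DNP (35.6% of all genes) and 17 in PF vs Ctrl (39.4%).

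Signs turned only for differences that were not called. Leaving out single samples moved Vamp7 in DNP vs Ctrl between -0.0222 (without DNP replicate 2) and 0.0754 on the log2 scale, and its sign also turned without Ctrl replicate 2. The range was -0.0037 (without DNP replicate 2) to 0.1495 for Vamp8 and -0.0304 (without Ctrl replicate 3) to 0.0463 for Unc13d. In PF vs DNP, equal-sum scaling gave -0.0349 for Stx4 and -0.0501 for Stxbp2, and Stx4 was -0.0023 with the single PF sample. The cause was not tested.

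With the replicate number as a block, 15 members were called in DNP vs Ctrl, 17 in PF vs DNP and 23 in PF vs Ctrl, beside 26.0%, 45.3% and 58.0% of all genes. Deviations of samples with the same number correlated at -0.0739 to 0.0514 in DNP vs Ctrl and -0.0822 to 0.00049 in PF vs DNP. In PF vs Ctrl the correlations were weak but all positive, at 0.083 to 0.189. Whether this reflects pairing was not tested. Precision rests on 3 samples a group, and the depth in reads is unknown.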
